A study of Mus musculus with 17 samples.

Results

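The genes described here belong to the bone morphogenetic protein (BMP) and transforming growth factor beta (TGF-beta) signalling pathway, and they were followed in cells that arise from 2 germinal walls, dorsal and lateral, of the subventricular zone in young mice. They were chosen by gene name: Bmp, Bmpr, Smad, Acvr, Tgfb, Tgfbr, Inhb and Gdf genes, together with the Id genes Id1 to Id4 and the secreted antagonists Nog, Chrd, Fst and Grem1. A gene was kept when a probe lay well above the local background, by the scanner's own call, in either channel of at least 2 arrays. Of 58 matching gene names, 56 passed (83 of 86 probes), among 26458 genes in all. Bmp15 and Gdf6 did not pass. Bmp1, a metalloprotease, and Bmp2k, a protein kinase, matched by name and are not BMP ligands.

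Newborn CD1 mice were electroporated at postnatal day 1 so that progenitors of either the dorsal or the lateral ventricular wall carried a green fluorescent protein (GFP) marker, and GFP-positive cells were collected by flow sorting. Collection took place 8 hours (n = 2 arrays), 1 day (n = 3), 2 days (n = 2), 4 days (n = 3), 7 days (n = 3) and 14 days (n = 4) later, and the replicates are labelled as biological. Each of the 17 arrays carried a dorsal sample in the green channel (Cy3) and a lateral sample of the same time in the red channel (Cy5), after whole-transcriptome PCR amplification of the messenger RNA. No array had the dyes swapped, so wall and dye cannot be told apart. The labels name polyA RNA for channel 1 and total RNA for channel 2, while the protocol describes the same amplification for both. Which holds was not settled, and any such difference would also follow the wall. The sources used here give no number of animals behind a sample.

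BMPs, growth differentiation factors, activins and TGF-betas are dimeric secreted ligands that bring type I and type II serine/threonine kinase receptors together at the cell surface. The activated type I receptor phosphorylates receptor SMADs, which join the common SMAD, Smad4, and enter the nucleus to act on target genes. The Id genes, which encode inhibitors of basic helix-loop-helix transcription factors, are direct BMP targets in many cell types. In the adult subventricular zone BMP signalling favours glial fate, and the antagonist noggin, made by ependymal cells, is part of the neurogenic niche.

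All values below are normalised log2 intensities of the probe that represents a gene, so a difference of 1 is a doubling, and a level near 5.64, the log2 of the added offset, is at the floor. A gene is termed called when its adjusted p from limma's moderated tests, corrected over all genes, was under 0.05 with the normalisation described under processing; calls under another setting are given with its name. Of the members, 23 were well above background in all 34 array channels and 2, Bmp8b and Inhbc, in fewer than 5. Per channel, the share of probes well above background ran from 41% to 79.4%. Replicate 1 of 1 day and replicate 2 of 14 days were unlike the rest: their median correlations with the other arrays, across genes, were 0.69 and 0.77, where the other 15 had 0.85 to 0.92, and results are given without both where they matter. The arrays lay on 5 slides. The 1 day and the 14 days arrays each filled a slide of their own, so slide and time cannot be told apart for those times. Arrays of 8 hours and of 2 days shared slides with 4 and 7 days but not with each other. The Feature Extraction version of the scanner output also followed time. It was 10.7.3.1 for all 8 hours and 14 days arrays, 10.5.1.1 for all 1 and 2 days arrays, and mixed at 4 and 7 days. These are bulk samples, in which fewer cells of a type and less RNA per cell cannot be told apart.

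Averaging the wall difference over all 6 times asked which members differed between dorsal and lateral cells. Fst and Id4 were higher in dorsal cells, and no member was called higher in lateral cells. These 2 calls are 3.57% of the 56 members, against a background of 2.38% of all genes. At an unadjusted p under 0.05 there were 15 members (26.8%, against 16.3% of all genes): Bmp3, Bmp6, Bmp7, Bmp10, Bmp2k, Bmpr1a, Fst, Gdf5, Gdf9, Id3, Id4, Inhba, Inhbb, Nog and Smad7, of which Bmp10 alone had the higher mean in lateral cells. The mean difference was above 0 in 42 of 56 members, with a median of 0.25 against 0.02 for all genes, but with each array's ratios centred on their median in place of loess it was above 0 in 29, with a median of 0.06 against -0.21 for all genes. By role, the mean difference was above 0 in 6 of 9 BMP ligands and 9 of 9 GDF ligands. It was above 0 in 4 of 4 secreted antagonists, 4 of 4 Id genes and 1 of 4 type II receptors. The share of all genes above 0 was not counted beside these. Among the GDF ligands, Gdf2 and Gdf15 were at 0.05 and Gdf3 and Gdf7 at 0.03, near the median of all genes. Signs also moved with the processing: median centring turned Id2 to -0.52, and the lowest value of Chrd over the alternatives was -0.18. Without both arrays that stood apart 4 members were called, Bmp3, Fst, Id3 and Id4, against 5.23% of all genes.

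**Figure D1:**
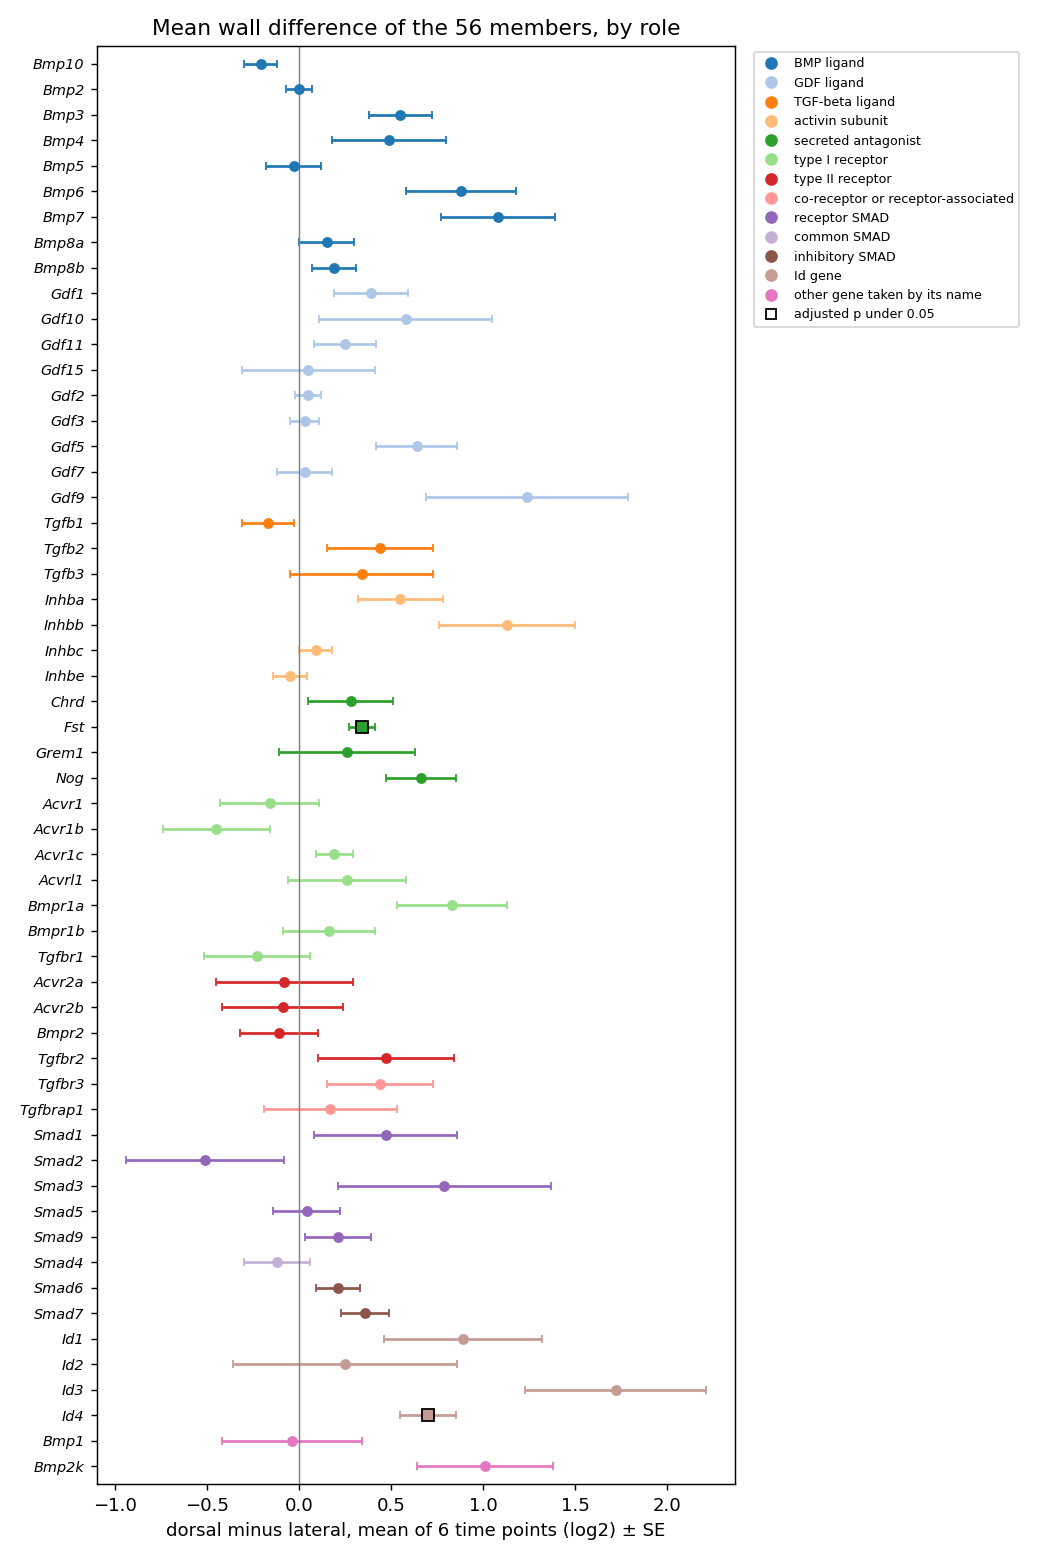
Each point is the mean dorsal minus lateral difference (log2) of a member over the 6 time points, with its standard error as the bar, coloured by role; squares mark the members called. The 2 called members, Fst at 0.34 and Id4 at 0.70, have narrow bars, while Id3 at 1.72 and Gdf9 at 1.24 lie farther out with wider ones.

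At single time points Fst was the only call, at 8 hours, where 1 of 56 members (1.79%) compares with 0.378% of all genes. At the other times limma called 0 members, and all genes were called at shares of 1.10%, 0.181%, 0%, 0.0265% and 0.0227% (1, 2, 4, 7 and 14 days). The members at an unadjusted p under 0.05 numbered 6, 7, 4, 3 and 4 at these times in turn. These are 10.7%, 12.5%, 7.14%, 5.36% and 7.14% of the members, against 16.1%, 7.87%, 5.47%, 5.16% and 10.3% of all genes. No member was called in the F test for a wall difference that changes with time (0.0984% of all genes called; 4 members, or 7.14%, at an unadjusted p under 0.05, against 8.05% of all genes). In the direct test of the change in wall difference from 8 hours to 14 days, Fst was called (1.79% of members against 0.174% of all genes).

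The time course asked which members changed between the 6 times in the mean of both walls. Inhbb, Acvr1, Bmpr1a, Acvr2b, Bmp2k and Id3 were called in the F test, which is 10.7% of the members against 7.58% of all genes. At an unadjusted p under 0.05 the members held 10 genes (17.9%, against 21.3% of all genes). The span between the highest and the lowest time mean had a median of 1.11 in the members and 1.37 in all genes. Among steps between neighbouring times, Acvr1 fell from 8 hours to 1 day (1.79% of members against 1.42% of all genes) and Bmp2k fell from 7 to 14 days (1.79% against 0.666%). The steps from 1 to 2 days, 2 to 4 days and 4 to 7 days had 0 member calls in limma, beside 0.00378%, 0.627% and 0.0718% of all genes. At an unadjusted p under 0.05 each held 5 members (8.93%), against 9.2%, 8.93% and 4.36% of all genes. From 8 hours to 14 days no member was called in dorsal cells (1.52% of all genes) or in lateral cells (2.19%). At an unadjusted p under 0.05 there were 6 members in dorsal (10.7%, against 12.8% of all genes) and 5 in lateral cells (8.93%, against 11.7%). Without both arrays that stood apart 13 members were called over time, against 12.9% of all genes: Acvr1, Acvr2b, Bmp2k, Bmpr1a, Bmpr1b, Gdf10, Id1, Id2, Inhbb, Smad3, Tgfb2, Tgfb3 and Tgfbr2.

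**Figure D2:**
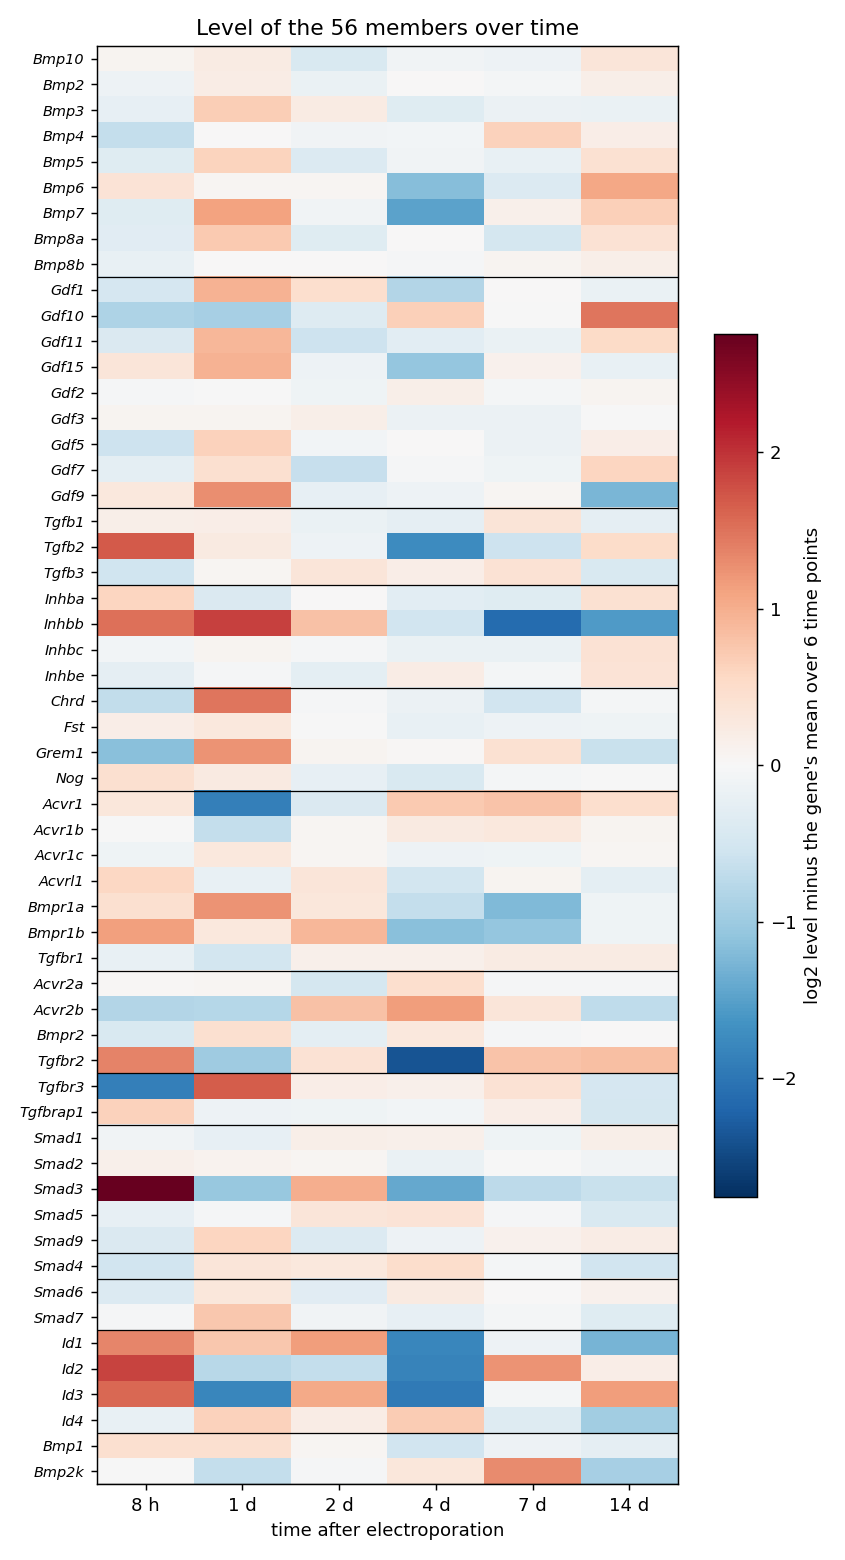
Rows are the 56 members grouped by role with black lines between roles, columns are the 6 times, and colour is the mean log2 level of both walls minus the gene's own mean over the times. The highest value is Smad3 at 8 hours (2.76) and the lowest Tgfbr2 at 4 days (-2.37); Id1, Id2, Id3 and Tgfb2 are also low at 4 days.

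The times that share slides gave a check within slides, although 8 hours and 2 days shared none with each other. Over 8 hours, 2, 4 and 7 days (10 arrays on 3 slides) the F test called 12 members, against 16.8% of all genes: Acvr2b, Bmp6, Bmpr1a, Bmpr1b, Id1, Id2, Id3, Inhbb, Smad3, Smad4, Tgfb2 and Tgfbr2. With the slide as a fixed block it again called 12, against 14.8% of all genes. Acvr2b, Bmp6, Bmpr1a, Bmpr1b, Id1, Id3, Inhbb, Smad3 and Tgfb2 were in both lists, while Bmp4, Gdf1 and Gdf10 took the places of Id2, Smad4 and Tgfbr2. Both settings were chosen after the data had been seen.

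Among the ligands, Inhbb, which encodes the beta B subunit of activins and inhibin, had the clearest change. In dorsal cells it read 12.62 and 12.4 (8 hours), 12.87, 13.25 and 12.39 (1 day), 12 and 12.23 (2 days), 10.41, 10.44 and 9.61 (4 days), 8.69, 10.36 and 9.57 (7 days), and 7.49, 6.94, 11.92 and 10.79 (14 days). In lateral cells it read 12 and 11.07, then 12.17, 11.99 and 11.68, then 10.29 and 10.77, then 9.62, 9.51 and 10.32, then 6.54, 6.67 and 8.45, and at 14 days 10.34, 6.81, 9.28 and 8.02. The arrays of 8 hours and 1 day lay above all arrays of 4 and 7 days in both walls, whereas the 14 days arrays spread more widely, with replicate 2 not above background in either wall. The mean of both walls was 12.39 ± 0.31 (SD, n = 3) at 1 day and 8.38 ± 0.71 (SD, n = 3) at 7 days. The F test gave F = 11.4 with limma's adjusted p = 0.00759, and the call was kept without any of the 17 arrays in turn. The change from 8 hours to 14 days, -3.23 ± 1.1 (SE) in dorsal and -2.92 ± 0.8 in lateral cells, was not called (adjusted p = 0.226 and 0.0913, limma). Over the 4 times that share slides the adjusted p was 0.00157, or 0.00615 with the slide as a block (limma). Within slides Inhbb at 4 days differed from 2 days by -1.13 and -1.53 on the 2 slides that held both, and at 7 days from 8 hours by -3.01.

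A further Inhbb probe did not follow this pattern, which makes the gene's course dependent on the probe. It starts at base 1820 of the transcript, 2334 bases upstream of the representing probe, its F test had an adjusted p of 0.608 (limma), and its change from 8 hours to 14 days was 1.35 in dorsal cells. Its sequence as deposited is shown because the 2 probes disagree; no letters are capitalised.
Inhbb further probe: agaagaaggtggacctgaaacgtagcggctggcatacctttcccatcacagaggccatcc

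Bmp7, a BMP ligand of brain and kidney development, was higher in dorsal cells on 14 of 17 arrays. Its dorsal arrays gave 9.87 and 8.36 (8 hours), 9.81, 12.25 and 10.66 (1 day), 9.8 and 9.72 (2 days), 6.96, 7.15 and 7.79 (4 days), 7.26, 12.08 and 7.61 (7 days), and 8.16, 6.79, 12.56 and 8.8 (14 days). Lateral arrays gave 7.13 and 7.91, then 9.1, 8.76 and 8.05, then 7.33 and 7.34, then 6.81, 7.05 and 7.29, then 8.47, 10.99 and 6.34, and at last 7.3, 6.93, 12.29 and 11.69. At 8 hours, 1 day and 2 days all dorsal arrays lay above all lateral ones, and from 4 days on the walls overlapped. The mean wall difference of 1.08 ± 0.31 (SE) was not called (adjusted p = 0.0951, limma). A second Bmp7 probe gave 0.94 ± 0.33.

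Bmp4, which induces glial differentiation in neural stem cell cultures, lay between 6.49 and 10.95 in dorsal and between 6.57 and 8.99 in lateral cells, the top dorsal value being a single 14 days array. Its mean wall difference was 0.49 ± 0.31 (SE; adjusted p = 0.462, limma). Bmp2 stayed between 6.32 and 7.18 on every array of either wall, with a mean wall difference of 0 ± 0.07. Bmp3, an atypical BMP that opposes osteogenic signalling, read 7.66 and 7.61 in dorsal and 6.38 and 6.32 in lateral cells at 2 days, and its mean wall difference was 0.55 ± 0.17 (adjusted p = 0.119, limma). It was well above background on 8 dorsal and 4 lateral arrays only.

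**Figure D3:**
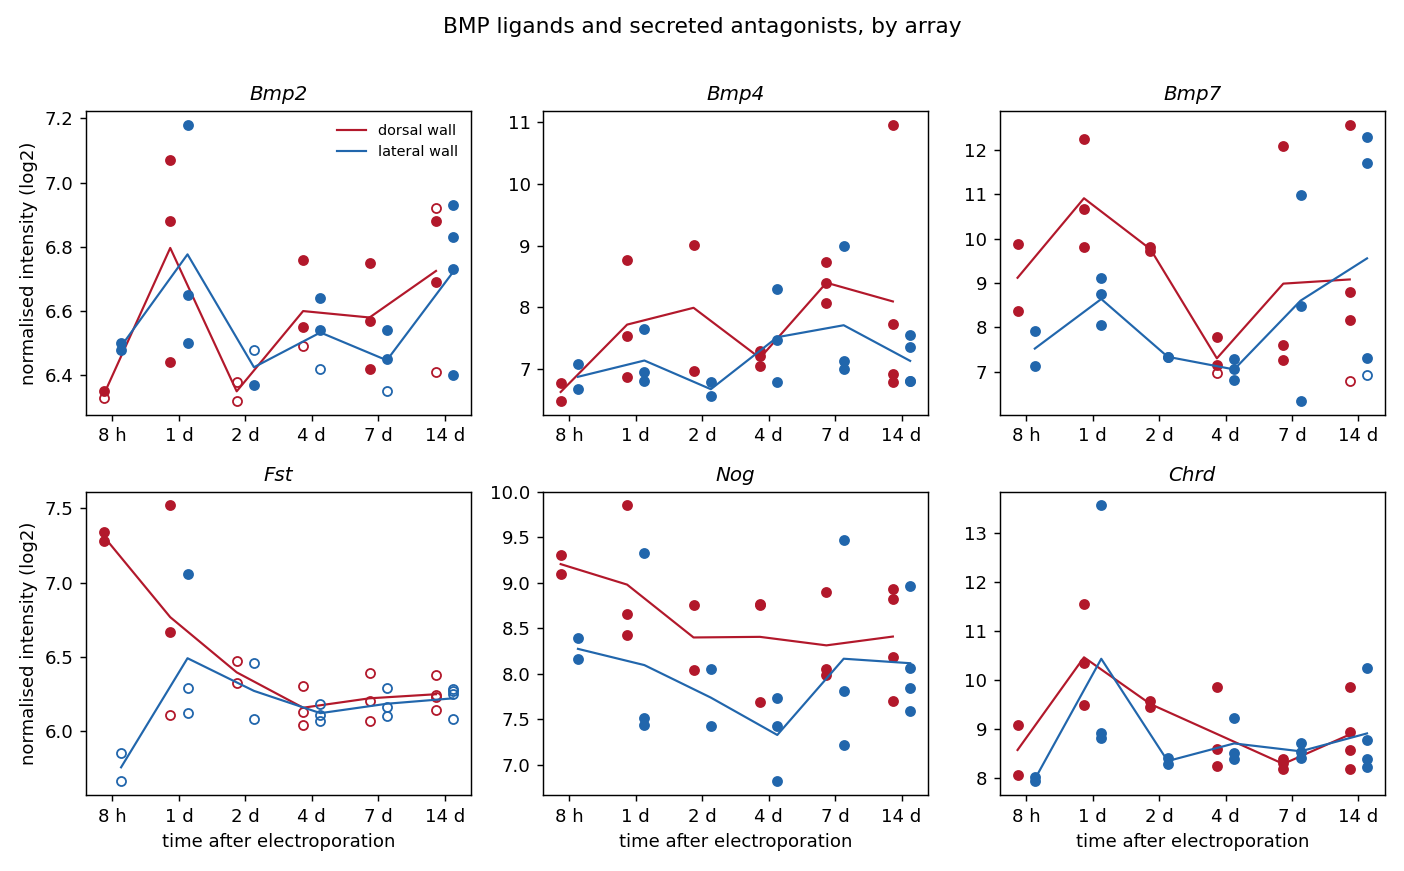
Points are single arrays (log2 normalised intensity) at each time for dorsal (red) and lateral (blue) cells, open where the probe was not well above background, and lines join the group means. Fst lies near the floor on most arrays except the 2 dorsal arrays at 8 hours (7.28 and 7.34), and Bmp7 is higher in dorsal cells up to 2 days.

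Gdf10, a growth differentiation factor also called Bmp3b, was near background early and measurable late. Its dorsal values at 14 days were 12.37, 6.13, 8.18 and 10.03 and its lateral ones 7.1, 6.2, 10.36 and 9.36, against 6.72 and 6.57 dorsally and 5.87 and 6.42 laterally at 8 hours. In each wall 2 of the 14 days arrays lay above every earlier array, and replicate 2 was not well above background. In lateral cells Gdf10 was not well above background at 8 hours, and the probe's own signal stood for that level. The 14 days mean was 4.32-fold higher (2.11 ± 0.9, SE), a difference that was not called (adjusted p = 0.363, limma). This is the fitted difference of means and not a lower limit, given the spread of the 14 days arrays. Of the other GDF ligands, Gdf2 and Gdf3 were well above background on at most 3 arrays of a wall. Gdf9 had a mean wall difference of 1.24 ± 0.55 (SE) and Gdf5 of 0.64 ± 0.22, neither called (adjusted p = 0.288 and 0.159, limma).

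The 3 TGF-beta ligands were not called in the comparisons over all 17 arrays. All 3 were called over time with array weights, a setting that called 13372 of 26414 genes. Tgfb2 and Tgfb3 were called without both arrays that stood apart (12.9% of all genes called). Tgfb2 read 10.79 and 10.89 in dorsal and 10.19 and 9.34 in lateral cells at 8 hours, and 7.25, 6.34 and 8.1 in dorsal and 6.36, 7.09 and 6.06 in lateral cells at 4 days. These ranges did not overlap, yet 1 day replicate 1 was at 5.89 and 6.03, and over all 6 times F was 2.14 (adjusted p = 0.369, limma). Across the 4 times that share slides Tgfb2 was called (adjusted p = 0.000697, and 0.006 with the slide as a block), with differences from 2 to 4 days of -1.82 and -1.59 within slides. Tgfb1 stayed between 6.59 and 8.38, with a mean wall difference of -0.17 ± 0.14 (SE). Tgfb3 ranged from 8.54 to 12.82, with a mean wall difference of 0.34 ± 0.39.

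Follistatin, encoded by Fst, binds activins and, less tightly, BMPs, and was the antagonist with calls. Dorsal Fst levels were 7.28 and 7.34 (8 hours), 7.52, 6.11 and 6.67 (1 day), 6.32 and 6.47 (2 days), 6.13, 6.3 and 6.04 (4 days), 6.39, 6.2 and 6.07 (7 days), and 6.23, 6.24, 6.14 and 6.38 (14 days). Its lateral levels were 5.66 and 5.85 (8 hours), 7.06, 6.29 and 6.12 (1 day), 6.46 and 6.08 (2 days), 6.07, 6.18 and 6.11 (4 days), 6.29, 6.16 and 6.1 (7 days), and 6.27, 6.28, 6.08 and 6.25 (14 days). Only at 8 hours did the walls separate. The probe was well above background on 4 dorsal arrays and 1 lateral array in the whole series, so from 2 days on neither wall had a measured level. The probe behind these values crosses an exon junction, since its 60 bases span 673 bases of the genome in the file's annotation; it is printed because every Fst value rests on it, with no letters capitalised.
Fst probe: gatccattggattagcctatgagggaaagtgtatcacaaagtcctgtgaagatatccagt

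At 8 hours Fst was at least 2.81-fold higher in dorsal cells, with the higher of the probe's own signal and that of the dimmest passing probe on each array standing for the lateral level (means 7.31 and 5.75, adjusted p = 0.00585, limma). Both arrays showed the direction, and the bound allows for the unmeasured lateral level only, not for the spread between arrays. Without 8 hours replicate 1 the call was lost (adjusted p = 0.108, limma) and without any other array it was kept. The mean wall difference over all times was 0.34 ± 0.07 (SE; adjusted p = 0.0339, limma), and without the 8 hours arrays it was 0.1 ± 0.08 (adjusted p = 0.629). The wall difference at 14 days was lower than at 8 hours by 1.53 ± 0.26 on the log2 scale (adjusted p = 0.0379), a call that was lost without either 8 hours array, any of the 4, 7 or 14 days arrays, or both arrays that stood apart (adjusted p = 0.0824). The mean wall call was kept without 1 day replicate 1 or 2 or 14 days replicate 1, 2 or 4. It was lost without any of the other arrays (adjusted p up to 0.108, limma). It was also lost with a normexp offset of 0 (0.0535), quantile normalization (0.144) and in the deposited value table (0.101). Quantile normalization also ended the 8 hours call (0.186), as did the deposited table (0.129), and the call of its change was lost with offset 0 (0.145), scanner processed signals (0.214), median centring (0.271), quantile normalization (0.402) and the deposited table (0.372). At 8 hours the log2 summed level of 4 erythroid marker genes was 19.74 to 20.11 in dorsal and 14.6 to 14.8 in lateral cells. Their list held 5 names, of which Hbb-b1 and Hbb-bt stood for 1 gene. The median 8 hours wall difference was 1.4 over the 9 radial glia and astrocyte markers. The part of these cells in the Fst difference was not tested.

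Nog, which encodes the BMP antagonist noggin, was well above background on every array and higher in dorsal cells on 15 of 17. At 8 hours it read 9.31 and 9.1 in dorsal and 8.16 and 8.39 in lateral cells, and at 4 days 7.69, 8.76 and 8.77 against 7.43, 7.74 and 6.82. The walls did not overlap at 8 hours and overlapped at 4 days. At 0.66 ± 0.19 (SE) its mean wall difference missed the threshold (adjusted p = 0.0984, limma). Chordin (Chrd), another BMP antagonist, ranged from 8.08 to 11.56 in dorsal and from 7.94 to 13.56 in lateral cells, the highest of each wall being 1 day replicate 1. Its mean wall difference was 0.28 ± 0.23 (adjusted p = 0.596, limma). Gremlin (Grem1) ranged from 6.57 to 10.05 in dorsal and from 6.06 to 10.84 in lateral cells, with a mean wall difference of 0.26 ± 0.37.

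Of the 11 type I and type II receptors, 3 were called over time, where 10.7% of the members and 7.58% of all genes were called. Acvr1, a type I receptor also known as ALK2 that binds BMPs, was lowest at 1 day. Dorsal Acvr1 levels were 13.34 and 12.96 (8 hours), 10.46, 9.33 and 11.12 (1 day), 11.16 and 11.7 (2 days), 12.11, 12.34 and 13.85 (4 days), 12.92, 11.63 and 13.78 (7 days), and 13.33, 10.74, 12.67 and 12.06 (14 days). In lateral cells Acvr1 read 12.2 and 11.52, then 9.56, 11.18 and 10.09, then 12.6 and 11.67, then 12.6, 12.81 and 13.78, then 12.78, 13.32 and 13.35, and at 14 days 12.71, 13.25, 13.69 and 12.77. All 1 day values lay below all 8 hours values in each wall. F was 11.1 (adjusted p = 0.00837, limma), and the call held without any single array. From 8 hours to 1 day the level fell by 2.21 ± 0.48 (SE) on the log2 scale (adjusted p = 0.0401, limma), a call lost without 10 of the 17 arrays (8 hours replicates 1 and 2, 1 day replicates 1 and 2, 2 days replicates 1 and 2, 4 days replicate 2, 7 days replicates 1 and 2, and 14 days replicate 4; adjusted p up to 0.385) and without both arrays that stood apart (adjusted p = 0.054), and also with a normexp offset of 0 (0.0768), scanner processed signals (0.0891) and the stricter filter (0.0528). The 1 day arrays share a slide with no other time, so this step cannot be told apart from the slide, and over the 4 times that share slides Acvr1 was not called (adjusted p = 0.309, or 0.0587 with the slide as a block).

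Bmpr1a, the type I BMP receptor also called ALK3, was highest at 1 day and lowest at 7 days in the mean of both walls. The dorsal readings were 12.42 and 12.35 (8 hours), 13.25, 12.77 and 12.72 (1 day), 12.32 and 12.57 (2 days), 10.29, 11.61 and 10.78 (4 days), 10.03, 10.82 and 10.37 (7 days), and 11.61, 14.96, 12.43 and 11.14 (14 days). Lateral Bmpr1a levels were 11.67 and 11.36, then 12.94, 12.76 and 12.13, then 11.11 and 11.29, then 10.68, 10.76 and 11.04, then 10.95, 9.59 and 9.99, and at 14 days 9.56, 9.6, 11.6 and 10.24. In both walls the 4 and 7 days arrays lay below all arrays of the earlier times, and the highest value of all came from the dorsal channel of 14 days replicate 2. F was 8.28 (adjusted p = 0.0206, limma), and the call was lost without 8 hours replicate 1, 1 day replicate 2 or 7 days replicate 2 or 3 (adjusted p 0.0506 to 0.0574). In the 4 times that share slides the adjusted p was 0.00487, or 0.0172 with the slide as a block (limma), and within slides the 4 days value differed from the 2 days value by -1.23 and -0.74. A further probe 3351 bases away gave an adjusted p of 0.787 over time, and with the probes of each gene averaged Bmpr1a was not called (adjusted p = 0.259, limma).

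Acvr2b, a type II receptor for activins, was highest at 4 days. Its dorsal values were 8.09 and 8.28 (8 hours), 9.28, 7.58 and 7.55 (1 day), 10.39 and 8.92 (2 days), 9.49, 8.99 and 11.31 (4 days), 9.86, 8.34 and 10.49 (7 days), and 8.55, 8.29, 7.3 and 8.13 (14 days). The lateral readings were 8.01 and 8.29, then 9, 7.67 and 8.02, then 9.72 and 10.03, then 10.42, 11.37 and 9.23, then 8.57, 9.79 and 8.76, and at 14 days 8.26, 8.21, 7.37 and 9.95. The 2 and 4 days arrays lay above the 8 hours arrays in each wall. F was 7.33 (adjusted p = 0.0298, limma), lost without 8 of the 17 arrays (both 8 hours arrays, 2 days replicate 1, all 4 days arrays, and 7 days replicates 1 and 3; adjusted p up to 0.0845), and with a normexp offset of 0 (0.0602), scanner processed signals (0.0748) and quantile normalization (0.0576). For the 4 times that share slides the adjusted p was 0.0054, or 0.0145 with the slide as a block (limma), and on the slide that held both times the 4 days value exceeded the 8 hours mean by 2.1.

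**Figure D4:**
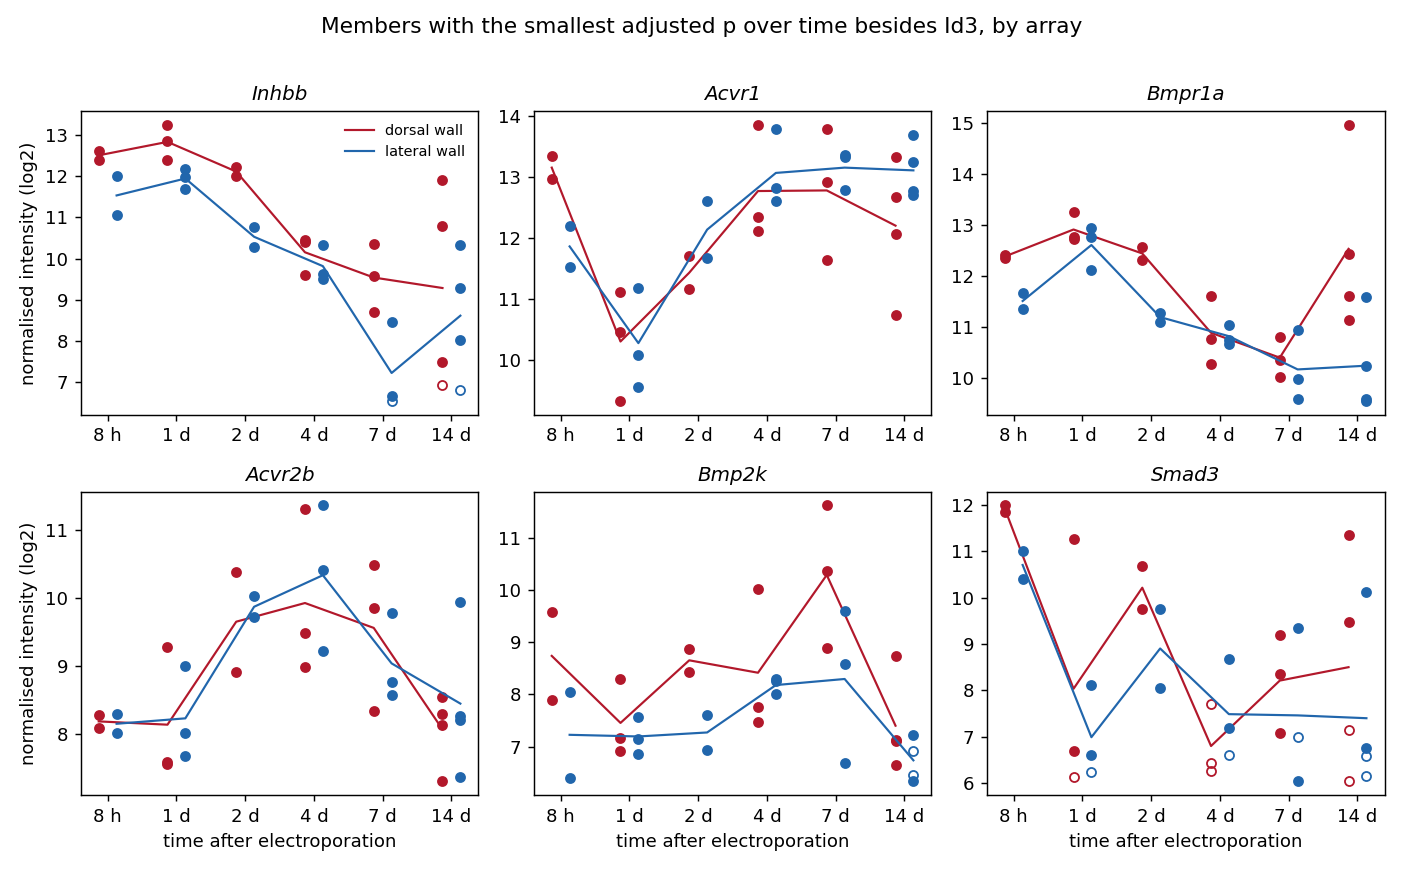
Points are single arrays (log2 normalised intensity) at each time for dorsal (red) and lateral (blue) cells, open where the probe was not well above background, and lines join the group means. Inhbb and Bmpr1a are lower at 4 and 7 days than at 8 hours and 1 day, Acvr1 is lowest at 1 day, Acvr2b is highest at 4 days in the mean of both walls and Smad3 is highest at 8 hours.

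The remaining receptors were not called over all 17 arrays. Bmpr1b and Tgfbr2 were called over time with array weights (13372 of 26414 genes called) and without both arrays that stood apart (12.9% of all genes). Bmpr1b, the type I BMP receptor also called ALK6, read 9.72 and 9.61 in dorsal and 8.26 and 8.73 in lateral cells at 8 hours, and 6.66, 6.37 and 7.22 in dorsal and 6.65, 6.52 and 7.38 in lateral cells at 4 days. Its dorsal change from 8 hours to 14 days was -2.24 ± 0.75 (SE; adjusted p = 0.22, limma). The ranges of 8 hours and 4 days did not overlap, and Bmpr1b was called over the 4 times that share slides (adjusted p = 0.00533, and 0.00359 with the slide as a block). Tgfbr2, the type II receptor for TGF-betas, read 12.01, 7.43 and 8.35 in dorsal and 8.3, 7.56 and 7.18 in lateral cells at 4 days, against 12.42 and 11.3 and 11.21 and 9.99 at 2 days, and 9.69, 14.03 and 11.79 and 11.68, 10.92 and 11.68 at 7 days. The lateral values at 4 days lay below those of both neighbouring times, and the dorsal values overlapped. F over all times was 1.94 (adjusted p = 0.405, limma). Further Tgfbr2 probes did not follow this course: their correlations with the representing probe were 0.09 and 0.04, with adjusted p of 0.563 and 0.519 over time (limma). Bmpr2, the type II BMP receptor, stayed between 8.53 and 10.86 and Tgfbr1, the type I TGF-beta receptor, between 10.28 and 14.77, with mean wall differences of -0.11 ± 0.21 and -0.23 ± 0.29. Tgfbr3, the co-receptor betaglycan, was at 6.73 and 6.51 in dorsal and 6.67 and 6.54 in lateral cells at 8 hours and higher on every later array of either wall, with F = 2.66 (adjusted p = 0.283, limma).

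Markers of some other cell types were also low at 4 days, when Tgfbr2, Tgfb2, Inhbb, Bmpr1a, Id1, Id2 and Id3 had lower means than at 8 hours in both walls. The summed level (log2) of the 5 ependymal markers was 11.47 to 12.97 in dorsal cells at 4 days, against 16.7 to 17.03 at 8 hours and 16.35 to 17.54 at 2 days. In lateral cells it was 10.89 to 12.21, against 15.19 to 15.73 and 14.93 to 15.33. At 7 days it was also low, at 11.77 to 14.54 in dorsal and 10.59 to 12.42 in lateral cells. Of these markers 3 were called over time and 3 were well above background on at least 30 of 34 channels. Their median mean wall difference was 1.81, with 0 of them called between walls. The log2 of the summed level of the 7 microglia and macrophage markers, all well above background on at least 30 of 34 channels, was 15.73 to 16.44 in dorsal cells at 4 days, against 17.75 to 18.47 at 2 days and 17.72 to 18.42 at 7 days. In lateral cells it was 12.8 to 15.31 at 4 days, against 16.93 to 16.96 and 16.95 to 17.75. Low values were not confined to 4 days: at 1 day this sum was 14.78 to 16.88 in dorsal and 11.99 to 16.67 in lateral cells. At 14 days it was 11.72 to 17.21 in dorsal and 16.02 to 18.44 in lateral cells. The erythroid sum was 11.03 to 11.56 in dorsal cells at 4 days, against 16.58 to 17.5 at 2 days and 17.23 to 18.43 at 7 days. In lateral cells it was 11.12 to 16.54 at 4 days, against 11.38 to 11.82 and 11.76 to 12.66. At 14 days the dorsal erythroid sum ran from 8.36 to 18.79. The 8 endothelial markers, of which 4 were above background on at least 30 channels, summed to 10.33 to 11.25 in dorsal and 10.1 to 10.64 in lateral cells at 4 days, and to 10.06 to 11.28 and 10.32 to 11.12 at 2 days, ranges that overlap. The part of these cells in the member values was not tested.

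No SMAD was called in the comparisons over all 17 arrays. Smad3, a receptor SMAD of the TGF-beta and activin branch, had the smallest adjusted p over time. It was called without both arrays that stood apart, with quantile normalization and with the stricter filter on dim probes. Calls also came with array weights and with the slide as a random block, settings that called 13372 and 12418 of 26414 genes. Dorsal Smad3 arrays read 11.99 and 11.85 (8 hours), 6.14, 6.7 and 11.27 (1 day), 10.68 and 9.75 (2 days), 6.27, 7.71 and 6.43 (4 days), 7.08, 9.2 and 8.36 (7 days), and 11.35, 6.04, 7.14 and 9.48 (14 days). Lateral Smad3 arrays read 10.41 and 11, then 6.25, 8.12 and 6.61, then 8.05 and 9.76, then 6.6, 8.68 and 7.19, then 7, 6.05 and 9.34, and at 14 days 6.59, 6.15, 10.12 and 6.75. The 8 hours arrays were the highest of each wall. F was 5.85 (adjusted p = 0.0557, limma), and over the 4 times that share slides the adjusted p was 0.00787, or 0.0198 with the slide as a block. A further Smad3 probe had an adjusted p of 0.582 over time.

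Smad1 and Smad5, receptor SMADs of the BMP branch, were not called over time. Smad1 lay between 10 and 13.07 in dorsal and between 8.77 and 12.31 in lateral cells, with F = 0.292 (adjusted p = 0.937, limma). Smad5 lay between 12.32 and 15.28 in dorsal and between 12.93 and 14.86 in lateral cells, with a mean wall difference of 0.04 ± 0.18 (SE) that median centring turned to -0.96 (adjusted p = 0.0202). The inhibitory SMADs are themselves induced by the pathway and dampen it. Smad6 lay between 7.16 and 8.62 in dorsal and between 6.84 and 8.66 in lateral cells, with a mean wall difference of 0.21 ± 0.12. Smad7 was well above background on 11 dorsal and 3 lateral arrays, was higher in dorsal cells on 14 of 17, and had a mean wall difference of 0.36 ± 0.13 (adjusted p = 0.169, limma).

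The Id genes stand at the output end of BMP signalling, and 3 of the 4 have a promoter in the RefSeq table (build GRCm38.p6). The 250 bases upstream of each start are shown because these genes were the members with the largest mean wall difference (Id3) and the wall call (Id4), and because Id2 and Id3 were low at the same time. Capitals mark GGCGCC, a GC-rich element bound by BMP SMADs, and GTCT or its reverse complement AGAC, the SMAD-binding element; GGCGCC reads alike on both strands, and no match overlaps another.
Id2 promoter, chr12:25096093-25096342, minus strand: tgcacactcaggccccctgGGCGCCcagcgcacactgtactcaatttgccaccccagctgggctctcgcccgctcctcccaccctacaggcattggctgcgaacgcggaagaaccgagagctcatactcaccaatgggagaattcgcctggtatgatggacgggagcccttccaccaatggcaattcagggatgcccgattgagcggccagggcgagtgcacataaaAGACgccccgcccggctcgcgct
Id3 promoter, chr4:136143572-136143821, plus strand: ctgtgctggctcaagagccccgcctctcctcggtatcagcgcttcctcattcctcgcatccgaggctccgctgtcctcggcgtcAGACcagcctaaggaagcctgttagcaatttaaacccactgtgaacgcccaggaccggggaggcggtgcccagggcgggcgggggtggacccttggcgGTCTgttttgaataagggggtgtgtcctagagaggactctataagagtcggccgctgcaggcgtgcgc
Id4 promoter, chr13:48260866-48261115, plus strand: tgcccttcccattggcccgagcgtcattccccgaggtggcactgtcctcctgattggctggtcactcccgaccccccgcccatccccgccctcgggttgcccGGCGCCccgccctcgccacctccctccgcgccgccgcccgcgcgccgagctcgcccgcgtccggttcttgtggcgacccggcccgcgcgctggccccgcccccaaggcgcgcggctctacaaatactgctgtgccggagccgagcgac
GGCGCC occurs 1 time in the Id2 and the Id4 window and 0 times in that of Id3, and GTCT or AGAC occurs 1 time, 2 times and 0 times in Id2, Id3 and Id4. Of all 32851 promoters in the table, 9.59% hold GGCGCC and 82.9% hold GTCT or AGAC in the same window. Among the 49 promoters of the 40 members that matched, 24.5% hold GGCGCC and 83.7% hold GTCT or AGAC. These are matches of letters only.

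Id4, which is expressed in neural stem cells and astrocytes, was higher in dorsal cells. Dorsal Id4 levels were 11.72 and 11.92 (8 hours), 13.27, 12.02 and 12.79 (1 day), 12.07 and 12.79 (2 days), 12.58, 13.49 and 12.68 (4 days), 11.56, 11.2 and 12.27 (7 days), and 9.04, 10.87, 12.22 and 12.88 (14 days). Lateral Id4 levels were 11.41 and 11.21, then 12.08, 12.08 and 12.28, then 11.16 and 11.89, then 11.73, 12.23 and 12.19, then 11.05, 10.99 and 11.51, and at 14 days 9.25, 8.72, 11.4 and 12.15. The dorsal value exceeded the lateral one on 15 of 17 arrays, and the walls did not overlap at 8 hours, 2 days and 4 days but did at 1, 7 and 14 days. The mean wall difference was 0.70 ± 0.15 (SE), or 1.62-fold (adjusted p = 0.0343, limma). The call was kept without 1 day replicate 1 or 2 or 14 days replicate 1, 2 or 4, and was lost without any of the other 12 arrays (adjusted p 0.0505 to 0.097), while the difference stayed between 0.63 and 0.76. A further Id4 probe 512 bases away gave 1.09 ± 0.36 (adjusted p = 0.167), and the mean over both probes was called (0.89 ± 0.16, adjusted p = 0.0121). With median centring the difference was 0.08 (adjusted p = 0.767), and the call was also lost with a normexp offset of 0 (0.14), scanner processed signals (0.205), quantile normalization (0.139) and in the deposited value table (0.177).

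Id3, whose product restrains differentiation in many progenitors, had the largest mean wall difference of the 56 members without being called. In dorsal cells Id3 read 13.69 and 14.65 (8 hours), 9.35, 10.69 and 12.71 (1 day), 13.59 and 13.8 (2 days), 11.97, 9.36 and 10.86 (4 days), 13.41, 12.82 and 11.7 (7 days), and 11.42, 10.9, 14.22 and 13.65 (14 days). In lateral cells Id3 read 12.28 and 12.1, then 8.92, 7.45 and 9.54, then 10.93 and 12.23, then 7.6, 10.77 and 7.36, then 9.54, 12.65 and 9.07, and at 14 days 9.89, 14.53, 14.04 and 13.39. The dorsal value was the higher on 15 of 17 arrays, and the walls were apart at 8 hours and 2 days. The mean wall difference was 1.72 ± 0.49 (SE), or 3.3-fold (adjusted p = 0.0915, limma).

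Over time Id3 was low at 1 and 4 days in the mean of both walls, at 9.78 ± 1.17 (SD, n = 3) and 9.65 ± 0.49 (SD, n = 3), against 13.18 ± 0.28 (SD, n = 2) at 8 hours and 12.64 ± 0.53 (SD, n = 2) at 2 days. F was 6.47 (adjusted p = 0.0425, limma). The call was lost without 13 of the 17 arrays (all but 1 day replicate 3, 7 days replicates 2 and 3 and 14 days replicate 1; adjusted p up to 0.11), without both arrays that stood apart (adjusted p = 0.086) and with no filter on dim probes (0.0548). Over the 4 times that share slides the adjusted p was 0.0166, or 0.00378 with the slide as a block (limma). Within slides the 4 days value differed from the 8 hours mean by -4.07 and from the 2 days values by -2.48 and -2.95. Id3 has a single probe, which crosses an exon junction (60 bases over 175 bases of the genome), as does the Id2 probe used here (over 348 bases); they are printed because the time course of each gene rests on them, with no letters capitalised.
Id2 probe: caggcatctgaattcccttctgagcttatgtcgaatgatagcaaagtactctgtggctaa
Id3 probe: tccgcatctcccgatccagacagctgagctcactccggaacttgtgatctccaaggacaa

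**Figure D5:**
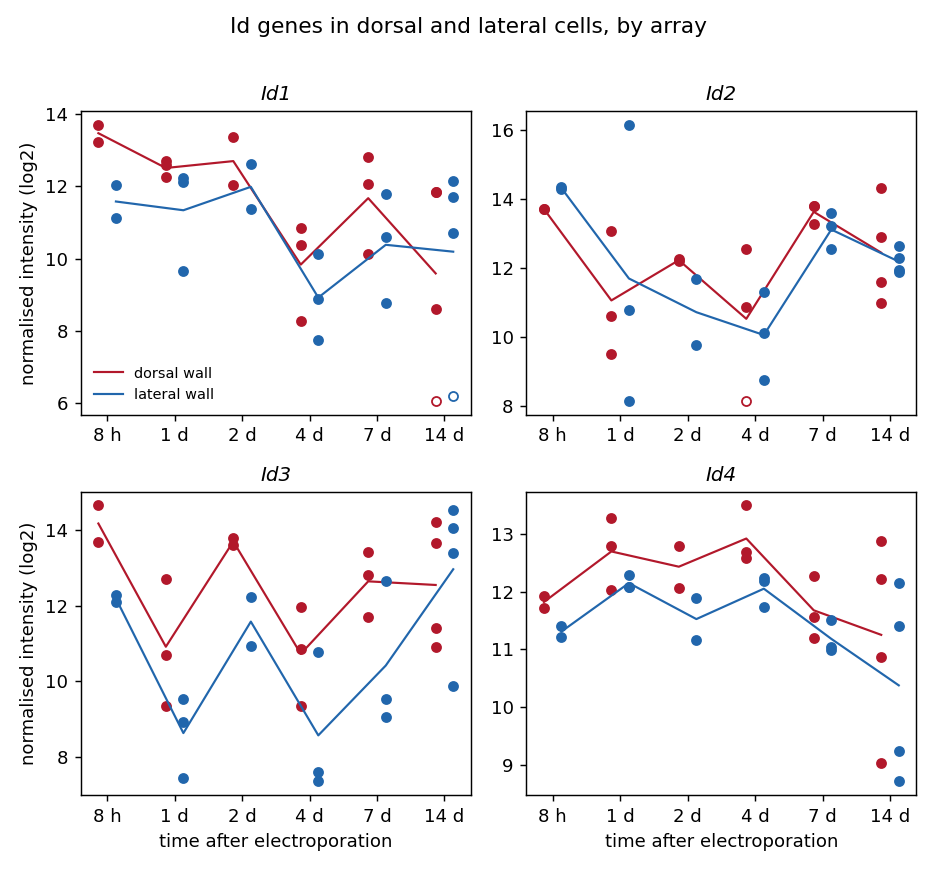
Points are single arrays (log2 normalised intensity) at each time for dorsal (red) and lateral (blue) cells, open where the probe was not well above background, and lines join the group means. Id1, Id2 and Id3 have their lowest mean of both walls at 4 days (9.38, 10.29 and 9.65), whereas Id4 has its highest there (12.49).

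Id1 and Id2 were not called over the 17 arrays, but both were called over time without both arrays that stood apart. Both were also called with array weights and with the slide as a random block, settings that called 13372 and 12418 of 26414 genes. With the probes of a gene averaged Id2 was called as well. Id1 read 13.23 and 13.69 in dorsal and 12.02 and 11.13 in lateral cells at 8 hours, 12.03 and 13.35 and 11.36 and 12.6 at 2 days, and 10.38, 8.29 and 10.83 and 8.89, 10.12 and 7.76 at 4 days. All 4 days values lay below all values of 8 hours and 2 days within each wall. At 14 days its replicate 2 was not well above background in either wall (6.07 and 6.2) while the other arrays were between 8.61 and 12.15. F was 2.49 (adjusted p = 0.308, limma). Across the 4 times that share slides Id1 was called (adjusted p = 0.0197, and 0.0221 with the slide as a block), and a second probe that starts 10 bases further on gave the same mean wall difference to within 0.01 (0.89 and 0.88).

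Id2 read 13.71 and 13.71 in dorsal and 14.35 and 14.28 in lateral cells at 8 hours, 12.55, 8.14 and 10.88 and 11.3, 10.12 and 8.74 at 4 days, and 13.27, 13.81 and 13.8 and 13.58, 12.55 and 13.21 at 7 days. The 4 days values lay below those of 8 hours and 7 days in each wall. The mean of both walls had already changed by -2.64 ± 0.92 (SE) from 8 hours to 1 day, not called (adjusted p = 0.182, limma). Within slides the 4 days value differed from the 2 days value by 0.92 and -2.8, so the 2 slides went opposite ways. F was 4.85 (adjusted p = 0.0889, limma), and the mean wall difference was 0.25 ± 0.61 (SE). The dorsal change from 8 hours to 14 days was -3.87 ± 1.37 for Id1 and -1.26 ± 1.17 for Id2, with adjusted p of 0.249 and 0.65 (limma).

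Markers of the progenitors and neuroblasts that the sort collects also differed. Of the 9 radial glia and astrocyte markers, all 9 were well above background on at least 30 of 34 channels. In the mean wall difference 5 of them were called higher in dorsal cells (median 1.24). Of the 7 neuroblast markers 3 were called lower (median -0.75): Sox11 (-0.75), Dlx1 (-1.9) and Dlx2 (-1.98). Dcx (-0.33), Tubb3 (-0.69), Stmn2 (-0.8) and Cd24a (0.04) were not called. Of all genes 2.38% were called in this comparison. The radial glia and astrocyte sum was 19.08 to 19.22 in dorsal and 17.01 to 17.32 in lateral cells at 8 hours, and 16.19 to 17.47 and 15.5 to 17.15 at 4 days. The neuroblast sum was 15.48 to 15.81 and 15.21 to 15.23 at 8 hours, and 17.63 to 18.22 and 18.3 to 18.48 at 4 days. The part of these cells and of ependymal cells in the Id, Inhbb and Bmpr1a values was not tested.

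Bmp2k, a kinase named for its induction by BMP2, was called over time and in a step. Dorsal Bmp2k levels were 9.59 and 7.89 (8 hours), 8.29, 6.91 and 7.16 (1 day), 8.43 and 8.88 (2 days), 7.47, 7.76 and 10.02 (4 days), 11.63, 10.36 and 8.89 (7 days), and 7.12, 7.1, 8.73 and 6.65 (14 days). Lateral Bmp2k levels were 6.4 and 8.05, then 7.57, 6.86 and 7.15, then 6.93 and 7.61, then 8, 8.25 and 8.29, then 6.69, 9.61 and 8.59, and at 14 days 7.23, 6.92, 6.33 and 6.46. The dorsal 7 days arrays lay above the dorsal 14 days arrays, and the lateral ranges overlapped. F was 7.04 (adjusted p = 0.0334, limma). From 7 to 14 days the mean of both walls fell by 2.23 ± 0.41 (SE) on the log2 scale (adjusted p = 0.0309, limma). The F call was lost without 9 arrays (both 8 hours arrays, 1 day replicate 2, both 2 days arrays, 4 days replicate 2, 7 days replicates 1 and 2 and 14 days replicate 4; adjusted p up to 0.102), and with a normexp offset of 0 (0.0602), scanner processed signals (0.0649) and probes averaged (0.0583). The step was lost without 9 arrays (both 8 hours and both 2 days arrays, all 7 days arrays, and 14 days replicates 2 and 4; adjusted p up to 0.116). With the probes averaged the step was -0.9 ± 0.34 and not called (adjusted p = 0.289), nor was it with scanner processed signals (0.0582). In the 4 times that share slides Bmp2k was not called (adjusted p = 0.187, or 0.214 with the slide as a block).

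Other genes of the pathway, from a list of modulators, further ligands, co-receptors, intracellular regulators and targets, were measured for 60 of 66 names. In the mean wall difference 3 were called higher in dorsal cells and 0 lower, which is 5% against 2.38% of all genes. They were Fstl5 (1.34 ± 0.22, SE; adjusted p = 0.0101), a follistatin-like protein, and the latent TGF-beta binding proteins Ltbp1 (1.57 ± 0.34; adjusted p = 0.0311) and Ltbp2 (1.84 ± 0.36; adjusted p = 0.0216), which hold TGF-beta in the matrix (all limma). Over time 8 were called (13.3% against 7.58% of all genes): Bmper, Fstl1, Fstl5, Ltbp1, Rgma, Itgav, Hey1 and Klf10. From 8 hours to 14 days in dorsal cells Fstl1 fell by 2.72 ± 0.55 on the log2 scale (adjusted p = 0.0268, limma) and Fstl5 fell by 5.33 ± 1 (adjusted p = 0.0163), and in lateral cells Ltbp1 rose by 3.36 ± 0.69 (adjusted p = 0.0209).

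Probe choice limits these statements. Of the 56 members, 35 had a single probe that passed and 21 had several. Only 6 of the 27 further probes correlated over 0.5 with the representing probe, and the correlations ran from -0.42 to 0.99. A further probe's mean wall difference could differ in size or sign from that of the representing probe, as for Smad1 (-0.26 against 0.47) and Bmp2k (-0.15 and 0.29 against 1.01), while for Id1 and Bmp7, whose probes start 10 and 79 bases apart, the values were 0.88 against 0.89 and 0.94 against 1.08.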

How the data were processed

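Dorsal and lateral cells of 6 times were hybridised in pairs to 17 Agilent 2-colour arrays. The authors deposited scanner output per array (Feature Extraction 10.5.1.1 on 9 arrays, 10.7.3.1 on 8, per the file headers), and its mean and background intensity per spot were used. The deposited series value table holds log2 values. Set against the deposited log10 ratio of red over green on each array, its slope was between -3.31 and -3.26, so it was read as log2 of dorsal over lateral and served as an alternative; its centring is unknown, and its column medians lay between -0.164 and 0.0459. The deposited files place probes on different mouse builds in the older and newer versions, so no probe coordinate is printed.

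Intensities were background-corrected with normexp (offset 50), loess-normalised within arrays and Aquantile-normalised between arrays in limma 3.58.1 (R 4.3.3). Probes well above background in either channel of at least 2 arrays were kept, and each gene took the values of its brightest probe on average. Means per time were fitted with lmFit and eBayes on all 17 arrays, with two-sided tests, Benjamini-Hochberg adjustment over all genes and a threshold of 0.05. The number of arrays limits the precision. Nothing in the labels says that samples came from separate animals beyond calling the replicates biological, so p-values measure only the spread between these samples. The script was tested on simulated data. Gene names followed RefSeq accessions where they matched (26876 of 41174 probes), then symbols or synonyms (3241), and otherwise the file's name (11057).

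Genes given with full values were those called between walls or from 8 hours to 14 days, the 12 with the smallest adjusted p over time, and a set of central ligands, antagonists, receptors, SMADs and Id genes; other members named with values were chosen after their values were seen. The members and lists were chosen with earlier results of these data known. Same-numbered replicates did not deviate together (median correlation of deviations 0.02, range -0.13 to 0.32, over 36 pairs), so no pairing was used. Promoter sequences came from RefSeq (GRCm38.p6) and probe sequences from the scanner files; figures were drawn with matplotlib 3.10.9.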

Additional observations from a re-analysis of the deposited data

Results flagged for a closer look

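Only the 14 days groups, with 4 arrays each, were large enough to test for an array that lies far from the others. Of 62 such groups, 8 held one, and chance gives about 5%. In dorsal cells these were Bmp3 in replicate 1 (6.63, the others 6.54 to 6.55), Smad5 in replicate 2 (12.32, the others 13.55 to 13.73) and Smad7 in replicate 4 (7.03, the others 6.08 to 6.22). In lateral cells they were Smad1 in replicate 2 (8.77, the others 11.55 to 11.76) and, in replicate 3, Bmp3 (6.89, the others 6.48 to 6.52), Fst (6.08, the others 6.25 to 6.28), Grem1 (8.95, the others 6.69 to 6.79) and Smad3 (10.12, the others 6.15 to 6.75). Most of the Bmp3 values and all 14 days Fst values were not well above background. The change of Fst from 8 hours to 14 days differed between the walls, being -1.53 (log2) in dorsal relative to lateral cells (adjusted p = 0.0379, limma).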

How the results depend on the processing

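The number of members called moved with the processing, and of 2912 values of single genes under the alternatives 2649 kept both their direction and their side of the threshold, 94 kept the side with a changed direction, 128 lost a call, 40 gained one and 1 reversed: the mean wall difference of Smad5, 0.04, became -0.96 (adjusted p = 0.0202, limma) with median centring. For the mean wall difference (2 members called), the count was 0 with a normexp offset of 0 and 1 with scanner processed signals (Fst). It was 9 with median centring (6143 of all genes called): Acvr1c, Bmp3, Bmp8b, Fst, Gdf3, Inhbc, Smad4, Smad5 and Smad7, without Id4. Of these, Smad5 was lower in dorsal cells. Acvr1c, Bmp8b, Fst, Gdf3 and Inhbc were well above background on at most 4 arrays of a wall. The count was 1 with quantile normalization (Id3, while Fst and Id4 were lost). With probes above background on 9 or more arrays it was 1 (Id4), and Fst did not pass that filter and was not tested. It was 5 with array weights (1368 of all genes called) and 14 with slide as a random block (3294 called). Without both arrays that stood apart it was 4. It was 0 with the replicate block, in the deposited value table and without the 8 hours arrays, the last chosen after seeing the data. For single time points (1 called) the count was 3 with median centring (Fst at 8 hours, Smad4 and Smad5 at 14 days). It was 0 with quantile normalization and 0 with the stricter filter, where Fst was not tested. It was 2 with array weights, 0 with the replicate block, 8 with the slide block and 0 in the deposited table. The wall difference changing with time (0 called) gave 1 with array weights and 1 with the slide block. The time course (6 called) gave 24 with array weights and 23 with the slide block, beside 13372 and 12418 of 26414 genes. The slide block rests on a fitted correlation of -0.17 between arrays of a slide. Without both arrays that stood apart the time course gave 13, and with the replicate block 4. It gave 4 with offset 0 and 4 with scanner signals (Acvr2b and Bmp2k lost in the last pair). The count was 5 without a filter (Id3 lost), 5 with probes averaged (Bmp2k and Bmpr1a lost, Id2 gained) and 6 with quantile normalization (Acvr2b lost, Smad3 gained). With the replicate block Fst and Id4 lost the mean wall call (adjusted p = 0.208 and 0.294, limma), Fst the 8 hours call (0.0661) and its change to 14 days (0.126), Bmp2k (0.101) and Id3 (0.0773) the time call, and Bmp2k its step (0.0875). From 8 hours to 14 days (0 called), dorsal counts were 2 with array weights, 1 without both arrays and 6 with the slide block, and lateral counts 2 with array weights and 5 with the slide block. Steps between times (2 called) gave 1 with offset 0, 0 with scanner signals, 1 with the stricter filter and 1 with probes averaged. They gave 24 with array weights, 5 without both arrays and 14 with the slide block. For single time points, the change with time, 14 days against 8 hours and the steps, shares of all genes under these settings are not given. Those counts show how far the processing moved the calls and cannot be read as results about the members. Leaving out 1 array at a time gave 0 to 4 calls for the mean wall difference, 0 to 2 for single time points, 0 to 0 for its change with time, 2 to 9 for the time course, 0 to 1 for dorsal and 0 to 1 for lateral 14 days against 8 hours, and 0 to 6 for the steps. Over all genes the mean wall difference called 629, and between 169 with the replicate block and 6143 with median centring; the time course called 2001, and between 1055 without 8 hours replicate 2 and 13372 with array weights. The cause was not tested. Same-numbered replicates correlated over 0.1 in 5 of 36 pairs, so the replicate block rests on numbers alone. Members near the floor, such as Fst after 1 day, Bmp3, Smad7, Gdf2 and Gdf3, had little signal over background, and their fold changes are limited by it.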
